A study of Mus musculus with 6 samples.

Results

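Regions of open chromatin at the limits of long non-coding RNA (lncRNA) genes were examined in R1 cells, a wild-type mouse embryonic stem cell line. A region was taken when its midpoint lay within 1 kb of either limit of an annotated lncRNA gene and more than 1 kb from both limits of every protein-coding gene, and regions of Neat1 and Malat1 were left out. This rule, which uses position alone, gave 2764 of the 68288 regions on chromosomes 1 to 19, in a table of 69689 regions in all. They lay at 2625 lncRNA genes, of which 2411 had 1 region, 213 had 2 and 1, B230208H11Rik, had 3. Because only midpoints were read, a wide region of the set can itself cover a protein-coding limit.

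ACC-seq measures accessibility with Tn5, a transposase that cuts open DNA and leaves sequencing adapters in it. There were 2 libraries of each of 3 groups of the same wild-type R1 cells. Fix_1,6-Hex cells spent 30 s in 1,6-hexanediol at 10% (w/v), which weakens hydrophobic contacts and breaks up a wide range of condensates. They were then fixed in 1% formaldehyde for 10 min with the alcohol still present. Fix cells had the same formaldehyde step without the alcohol, and Fresh cells were not fixed. Tagmentation took 30 min in all 3 groups, at 55 °C for Fix_1,6-Hex and Fix nuclei and at 37 °C for Fresh nuclei, so temperature and fixation cannot be told apart between Fix and Fresh. Every culture held serum, LIF and the 2i inhibitors and was grown on fibroblast feeders, later removed by replating, and whether feeder chromatin remained was not tested. No label says that the 2 libraries of a group came from separate cultures. The aim stated for the series was to find features of accessibility that respond to a change in condensates. The table analysed here gives the position of each region and 1 of 9 cluster names, with no value per library, and the sources used here do not say what each cluster stands for. The groups were therefore not compared, depth is unknown, and the cell type could not be checked on RNA levels.

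Long non-coding RNAs are transcripts without a known protein product, made mostly by RNA polymerase II and often capped, spliced and polyadenylated. Some act in cis on neighbouring genes, such as the imprinted antisense RNAs that silence one parental allele, some act in trans as scaffolds or decoys, and others are carriers of small RNAs released from their introns. Their promoters are often poorer in CpG dinucleotides than those of protein-coding genes, and many share enhancer-like chromatin. In embryonic stem cells some of them, such as Lncenc1 and Tunar, have been linked to self-renewal.

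The start windows of 5 lncRNA genes show the range of sequence found inside these regions, from CpG-poor to CpG-rich. Each window runs from 250 bases before to 50 bases after the annotated start, is read 5′ to 3′ on the strand of the gene, and comes from RefSeq on the GRCm38.p6 assembly, the same assembly as mm10. Capitals mark CpG dinucleotides.
Kcnq1ot1: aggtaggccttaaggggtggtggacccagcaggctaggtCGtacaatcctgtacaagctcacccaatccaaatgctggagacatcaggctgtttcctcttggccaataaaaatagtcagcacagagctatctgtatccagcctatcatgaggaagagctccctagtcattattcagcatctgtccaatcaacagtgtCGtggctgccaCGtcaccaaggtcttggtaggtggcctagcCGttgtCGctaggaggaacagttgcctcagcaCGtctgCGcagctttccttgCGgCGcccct
Lncenc1: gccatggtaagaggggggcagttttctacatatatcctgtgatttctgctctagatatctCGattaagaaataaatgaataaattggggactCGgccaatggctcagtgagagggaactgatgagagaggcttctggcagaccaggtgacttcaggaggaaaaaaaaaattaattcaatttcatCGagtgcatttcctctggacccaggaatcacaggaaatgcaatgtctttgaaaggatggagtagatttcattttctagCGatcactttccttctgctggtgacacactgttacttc
Hoxd3os1: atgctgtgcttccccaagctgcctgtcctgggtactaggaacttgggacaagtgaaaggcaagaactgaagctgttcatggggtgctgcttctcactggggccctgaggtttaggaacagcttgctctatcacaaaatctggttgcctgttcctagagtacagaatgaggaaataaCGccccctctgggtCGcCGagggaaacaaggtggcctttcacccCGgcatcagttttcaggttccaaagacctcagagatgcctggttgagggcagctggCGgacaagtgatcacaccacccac
Dancr: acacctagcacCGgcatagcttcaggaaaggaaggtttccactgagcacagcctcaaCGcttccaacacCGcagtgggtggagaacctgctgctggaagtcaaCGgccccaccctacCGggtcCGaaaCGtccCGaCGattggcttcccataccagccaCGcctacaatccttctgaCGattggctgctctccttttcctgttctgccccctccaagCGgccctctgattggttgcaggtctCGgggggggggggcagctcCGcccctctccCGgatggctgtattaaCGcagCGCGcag
Chaserr: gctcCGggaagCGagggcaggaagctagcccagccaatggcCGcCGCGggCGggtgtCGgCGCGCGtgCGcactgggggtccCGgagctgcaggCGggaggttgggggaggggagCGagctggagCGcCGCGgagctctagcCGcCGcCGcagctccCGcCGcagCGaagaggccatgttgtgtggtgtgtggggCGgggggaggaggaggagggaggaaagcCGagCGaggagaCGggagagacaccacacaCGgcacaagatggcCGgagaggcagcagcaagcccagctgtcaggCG
The Kcnq1ot1 window (chr7:143296498-143296797, minus strand) had 9 CpG dinucleotides and lay in a cluster 3 region. Lncenc1 (chr13:97434720-97435019, plus strand) had 4 and lay in cluster 7, and Hoxd3os1 (chr2:74716081-74716380, minus strand) had 5 and lay in cluster 6. Dancr (chr5:74092810-74093109, plus strand) had 18 in a cluster 2 region, and Chaserr (chr7:73558346-73558645, minus strand) had 30 in a cluster 3 region. The ratio of observed to expected CpG, which corrects for the C and G content of the window, was 0.422 for Kcnq1ot1, 0.304 for Lncenc1, 0.229 for Hoxd3os1, 0.649 for Dancr and 0.826 for Chaserr. The letters GGGCGG of the GC box were found on either strand in the windows of Dancr and Chaserr, and CCAAT in those of Kcnq1ot1, Lncenc1, Dancr and Chaserr. Of 10 motifs searched on both strands, none was found in the Hoxd3os1 window, which says only that those letters are absent from these 300 bases.

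The first question was which of the 9 clusters hold the regions at lncRNA gene ends. They were set beside 52706 other regions whose midpoints lay more than 1 kb from protein-coding limits, called other distal regions here, and beside 12818 regions at protein-coding gene ends. Clusters 7 and 9 together held 43.6% of the regions at lncRNA gene ends (1204 of 2764, exact 95% binomial interval 41.7 to 45.4%), against 52.6% of other distal regions and 15.3% of regions at protein-coding ends. The share over all autosomal regions was 45.2%. Clusters 2, 3 and 4 together held 8.21% (227 of 2764, interval 7.22 to 9.30%), against 4.04% of other distal regions and 32.1% at protein-coding ends, with 9.48% over all autosomal regions. This share was 14.4% at genes whose symbols are not provisional. Among regions of middle width, between the quartiles of all autosomal regions, it was 3.43%, against 1.58% of other distal regions of middle width. In the same regions clusters 7 and 9 held 39.5% (36.9 to 42.1%), against 42.2% of other distal regions (41.7 to 42.8%), so most of that gap was not seen at middle width. In these 2 cluster groups, shares at lncRNA gene ends thus stood between those of the other 2 classes, nearer to other distal regions. They were also near the shares over all autosomal regions. These intervals cover counting error only, regions are not replicates of a condition, and no test was made. Clusters 2, 3 and 4 were pooled as clusters whose regions lie mostly at gene ends, a trait of these same data. Their higher share at protein-coding ends thus follows from the pooling.

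Taken one by one, cluster 9 held most regions at lncRNA gene ends, 715 or 25.9%, against 30.3% of other distal regions and 26.3% of all autosomal regions. Cluster 1 held 592 or 21.4%, against 18.2% of other distal regions and 18.7% of all. At protein-coding ends cluster 1 held 20.6%, within the interval at lncRNA gene ends (19.9 to 23.0%). Cluster 7 held 489 or 17.7%, against 22.3% of other distal regions and 18.9% of all. These 3 clusters were also the largest among other distal regions. Cluster 6 held 335 or 12.1%, against 14.2% of other distal regions and 12.6% of all. Cluster 8 held 288 or 10.4%, against 5.85% of other distal regions and 9.07% of all. Cluster 8 was also the largest cluster at protein-coding ends, with 22.0% there. Cluster 5 held 118 or 4.27%, against 5.18% and 4.93%, but 8.38% of the 167 regions at genes whose symbols are not provisional. At protein-coding ends cluster 5 held 4.06%. The small clusters were 3 with 90 regions or 3.26% (1.53% of other distal regions, 3.66% of all), 4 with 86 or 3.11% (1.54% and 3.51%) and 2 with 51 or 1.85% (0.964% and 2.3%).

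In these 2 cluster groups and in cluster 8, the position of the shares between the other 2 classes held over most chromosomes. The share of regions at lncRNA gene ends in clusters 2, 3 and 4 was above that of other distal regions on 18 of 19 autosomes, with an SD of 2.57 percentage points over autosomes, and the share in cluster 8 on 19 of 19. The share in clusters 7 and 9 was above on 1 of 19. Against protein-coding ends, the share in clusters 2, 3 and 4 was above on 0 of 19 and the share in clusters 7 and 9 on 19 of 19. Cluster 1 gave no such separation from protein-coding ends, with a higher share on 10 of 19. Nor did the set stand apart from all autosomal regions. Its share was above theirs on 6 of 19 autosomes for clusters 2, 3 and 4, and on 6 of 19 for clusters 7 and 9. For cluster 8 it was above on 12 of 19. Regions at lncRNA gene ends were 4.05% ± 0.417 of all regions (SD over 19 autosomes), between 3.23% on chromosome 14 and 5.01% on chromosome 13.

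**Figure D1:**
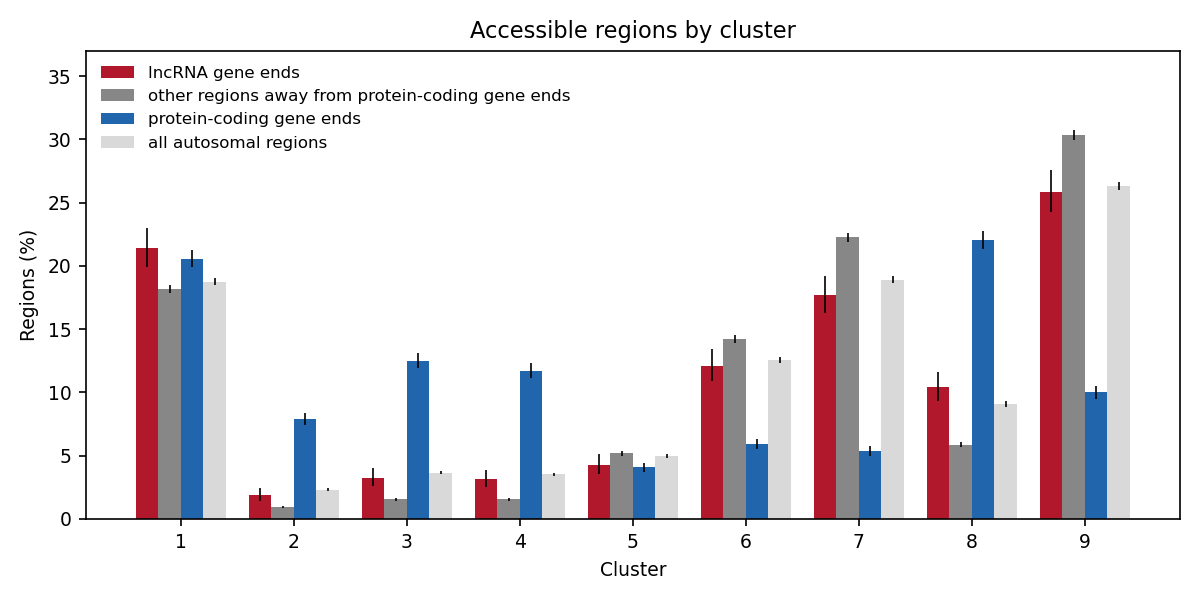
Share of regions (%) in each of the 9 clusters, for regions at lncRNA gene ends, other distal regions, regions at protein-coding gene ends and all autosomal regions, with exact 95% binomial intervals as bars. In clusters 2, 3, 4 and 8 the lncRNA gene ends stand above other distal regions and below protein-coding gene ends, and in clusters 7 and 9 the order is the opposite.

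Regions at lncRNA gene ends were wider than other distal regions and narrower than those at protein-coding ends. The median width was 519 bp (quartiles 331 and 1063 bp), against 411 bp in other distal regions and 1048 bp at protein-coding ends. Width followed the cluster. The narrowest at lncRNA gene ends were cluster 9, with a median of 310 bp, and cluster 7, with 368 bp. Cluster 1 had 536 bp and cluster 6 had 732 bp, while cluster 5 reached 854 bp and cluster 8 reached 909 bp. The widest were cluster 2 with 1288 bp, cluster 3 with 1399.5 bp and cluster 4 with 1477.5 bp. In each of the 9 clusters the median at lncRNA gene ends was above that of other distal regions, by little in cluster 9 (310 against 288 bp) and more in cluster 6 (732 against 562.5 bp). In clusters 2, 3 and 4 it was also above the medians at protein-coding ends, 1253, 1256.5 and 1335 bp, and in the other clusters below. At lncRNA gene ends the SD over autosomes of the median was 382, 514 and 406 bp in clusters 2, 3 and 4. The widest region lay at the start of Gm39228, chr8:94178737-94187856, a cluster 5 region of 9120 bp. Its midpoint lay 2.97 kb from the nearer limit of Mt1, which encodes the metal-binding protein metallothionein, and the region covered that limit.

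A wide region covers a gene limit more often, and this moved with the cluster. Of the 2764 regions, 50.9% spanned a lncRNA limit, while the rest lay beside one. The limit was spanned by 90.2% of regions in cluster 2, 91.1% in cluster 3 and 93.0% in cluster 4, by 72.6% in cluster 8, and by 38.4% in cluster 7 and 30.2% in cluster 9. The part of width in these shares was not tested. Of the regions, 34.6% also lay inside the limits of a protein-coding gene, against 54.0% of other distal regions. Those inside fell into clusters 2, 3 and 4 in 11.0% of cases, against 6.74% of those outside.

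The next question was whether the start of a lncRNA gene, where its promoter lies, differs from its end. The strand of 9290 of 12406 autosomal lncRNA genes was known from the RefSeq windows, none of them on chromosome 18, so 623 regions at genes without strand were left out here. Of the others, 1405 lay at a start, 646 at an end and 90 within 1 kb of both. Regions at starts were in clusters 2, 3 and 4 in 10.6% of cases (interval 9.04 to 12.3%), against 4.95% at ends (3.41 to 6.92%), and the share was higher at starts on 17 of 18 autosomes. In cluster 8 the shares were 12.6% at starts and 6.04% at ends, again higher at starts on 17 of 18. Clusters 7 and 9 held 38.3% of regions at starts (35.7 to 40.9%) and 53.7% at ends (49.8 to 57.6%), and the share was higher at starts on 0 of 18. Cluster 1 held 22.2% at starts and 18.1% at ends, with starts higher on 13 of 18. The median width was 608 bp at starts and 440.5 bp at ends. The start-minus-end difference in clusters 7 and 9, -15.4 percentage points, was -0.53 at genes whose symbols are not provisional. That in clusters 2, 3 and 4, 5.65 points, was 1.30 among regions of middle width.

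Ends of lncRNA genes had shares like those of other distal regions, which were 4.04% for clusters 2, 3 and 4 and 52.6% for clusters 7 and 9. The starts remained far from protein-coding starts, of whose regions 38.7% were in clusters 2, 3 and 4 and 10.2% in clusters 7 and 9. At protein-coding ends proper, the 3' limits, these shares were 4.46% and 45.0%, so the ends of both gene types lay much closer to each other than their starts.

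**Figure D2:**
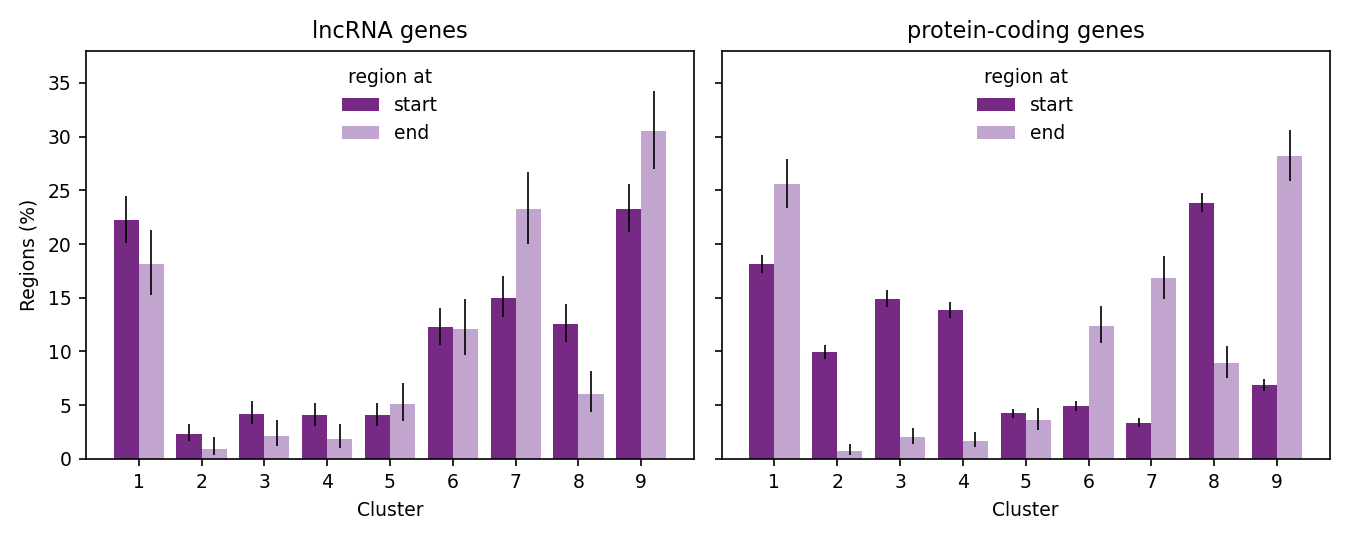
Share of regions (%) in each cluster at starts and at ends of lncRNA genes (left) and of protein-coding genes (right), with exact 95% binomial intervals as bars. At lncRNA genes cluster 8 is 12.6% at starts and 6.04% at ends, and both panels show clusters 7 and 9 higher at ends.

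The same contrast could be read within genes. At 150 genes 1 region lay at the start and another at the end, and the region at the start was the wider in 88. The median width was 664 bp at these starts and 460.5 bp at these ends. The start region was in cluster 2, 3, 4 or 8 and the end region was not in 34 genes, against 11 genes with the reverse. For clusters 7 and 9 the start region alone belonged to them in 19 genes and the end region alone in 48. Cluster 1 did not differ in this way, with 29 genes at the start alone and 25 at the end alone. Both regions were of the same cluster in 23 of the 150 genes. Dancr, which hosts a small nucleolar RNA, had different clusters, with a region of 1126 bp in cluster 2 at its start and one of 200 bp in cluster 6 at its end. Snhg5, another host, had a cluster 2 region of 1384 bp at its start and a cluster 6 region of 1678 bp at its end.

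How often a limit had a region was counted next. Of 12188 lncRNA genes with a limit away from protein-coding limits, 21.5% had a region at an end (2619 genes, interval 20.8 to 22.2%, SD over autosomes 3.69), against 62.5% of 20665 protein-coding genes. A region lay within 1 kb of 18.5% of lncRNA starts (1487 of 8053) and of 8.18% of lncRNA ends (724 of 8847). For protein-coding genes it was 59.1% of starts and 11.8% of ends. The 2 gene types were counted unlike. At lncRNA genes and limits only regions of the set counted, which leaves out those with a midpoint within 1 kb of a protein-coding limit. At protein-coding genes and limits any region counted. The midpoints were densest just before lncRNA starts, with 4.61 per 100 starts in the bin of 250 bp from -250 to 0 bp, against a mean of 1.10 in bins beyond 2 kb. At lncRNA ends no bin rose in this way, and the highest, -1250 to -1000 bp, had 1.68 per 100 against a mean of 1.20 beyond 2 kb. Within 1 kb of these ends the bins ran from 0.746 to 1.32 per 100, so midpoints were no denser there than in the flanks. The 8.18% of ends with a region is thus not above the flanks, and such regions also count in the 21.5% of genes. At protein-coding starts the highest bin, 0 to 250 bp, had 22.0 per 100 against 1.37.

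**Figure D3:**
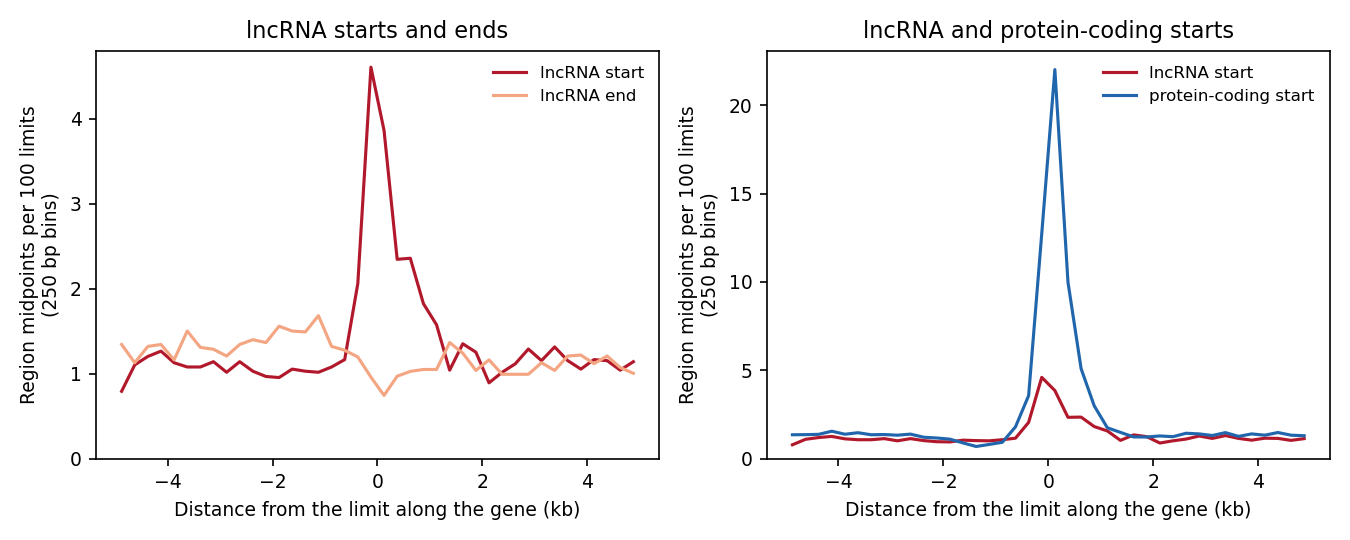
Region midpoints per 100 limits in bins of 250 bp, by distance along the gene (kb, negative before the limit), at lncRNA starts and lncRNA ends (left) and at lncRNA starts and protein-coding starts (right, another scale). The curve of lncRNA starts reaches 4.61, the curve of lncRNA ends stays at or below 1.68, and that of protein-coding starts reaches 22.0.

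Sequence at the start went with both the presence of a region and its cluster. A window of 300 bases was at hand for 7789 lncRNA starts more than 1 kb from protein-coding limits, and a region at a lncRNA gene end spanned 933 of them. The median ratio of observed to expected CpG was 0.410 at these 933 starts, and 0.201 at the 6222 lncRNA starts with no region midpoint within 1 kb. It was 0.797 in cluster 2 (37 starts), 0.600 in cluster 3 (58), 0.665 in cluster 4 (52) and 0.582 in cluster 8 (152). It was 0.463 in cluster 1 (216), 0.324 in cluster 5 (47), 0.298 in cluster 6 (130), 0.313 in cluster 9 (139) and 0.286 in cluster 7 (102). At the 5334 protein-coding starts inside a region the median was 0.774, and it ran from 0.510 in cluster 7 to 0.821 in cluster 3. In cluster 2 the lncRNA and protein-coding medians, 0.797 and 0.807, lay close together, while in cluster 6 they were 0.298 and 0.654.

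A smaller share of CpG-rich lncRNA starts than of CpG-rich protein-coding starts lay inside a region. Of 594 lncRNA starts with a ratio of at least 0.6, 49.0% were spanned by a region of the set (interval 44.9 to 53.1%) and 56.4% by any region of the table. Of 4258 protein-coding starts with such a ratio, 95.6% were spanned. No region midpoint lay within 1 kb of 36.7% of these CpG-rich lncRNA starts, against 3.15% of the CpG-rich protein-coding starts. Below 0.6, 8.92% of 7195 lncRNA starts and 22.6% of 5583 protein-coding starts were spanned.

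**Figure D4:**
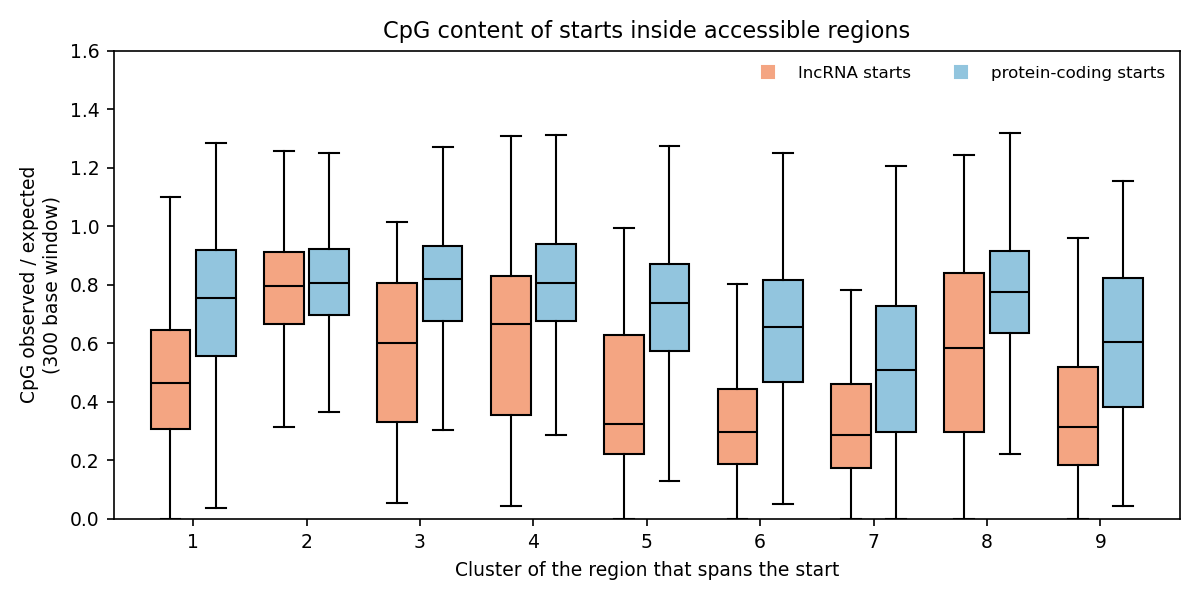
Ratio of observed to expected CpG in the 300 bases around starts that lie inside a region, by cluster, for lncRNA starts and protein-coding starts. Boxes show quartiles and medians, and whiskers reach the farthest value within 1.5 box lengths. The median at lncRNA starts is 0.797 in cluster 2 and 0.286 in cluster 7.

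Short motifs were searched on both strands of the same windows. The GC box letters GGGCGG, bound by Sp/Klf factors, were in 36.0% of the 933 lncRNA starts inside a region and in 6.22% of the lncRNA starts without one. They were in 68.5% of protein-coding starts inside a region and in 29.9% of all 18845 windows searched. CCGGAAG, a form of the ETS site, was in 8.15% of lncRNA starts inside a region, 2.14% of those without one, and 7.51% of all windows. TATAAA was in 9.11% of lncRNA starts inside a region and in 18.1% of those without, with 16.4% over all windows. CCAAT was in 34.2% and 36.7% (38.2% of all windows), and the octamer ATGCAAAT, read by Oct factors, in 2.47% and 2.04% (1.98% of all). TGACTCA of the AP-1 site was in 6.86% and 7.02% (5.75% of all), AAGATGG of YY1 in 6.00% and 6.81% (6.71% of all). CACGTG, the E-box, was in 9.86% and 4.82% (6.72% of all), TGACGTCA of the CRE in 1.71% and 0.691% (1.70% of all), and GCGCATGC, read by NRF1, in 2.04% and 0.611% (2.28% of all). The letters given for the GC box, the ETS site, the E-box, the CRE and NRF1 each contain CG, and CpG content was itself higher inside regions. TATAAA holds only A and T, and the median share of G and C was 53.7% at lncRNA starts inside a region and 46.3% at those without. A match of letters is a description and shows no binding.

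Distance from protein-coding genes went with the cluster. Regions lay at a median distance from the nearest protein-coding limit of 17.6 kb at lncRNA gene ends and 17.9 kb in other distal regions. It was 9.22 kb for regions at lncRNA gene ends in cluster 4 and 22.7 kb for those in cluster 7. Between 1 and 2.5 kb from a protein-coding limit, 14.5% of 276 regions at lncRNA gene ends were in clusters 2, 3 and 4, against 6.95% of other distal regions at that distance. Beyond 100 kb it was 5.92% of 287, against 2.91%. In all 7 distance bins the share in clusters 2, 3 and 4 was higher at lncRNA gene ends, and in all 7 the share in clusters 7 and 9 was lower. For clusters 7 and 9 it was 33.3%, against 42.4% of other distal regions, in the nearest bin, and 48.4% against 57.5% in the farthest. Cluster 1 shares were 25.7% and 25.5% in the nearest bin and 19.5% and 10.5% in the farthest. Between them it was 29.6% against 23.9% at 2.5 to 5 kb, 24.4% against 20.9% at 5 to 10 kb, 19.7% against 18.8% at 10 to 20 kb, 17.9% against 16.4% at 20 to 50 kb and 18.2% against 14.8% at 50 to 100 kb. The gap in cluster 1 thus had no steady trend with distance.

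**Figure D5:**
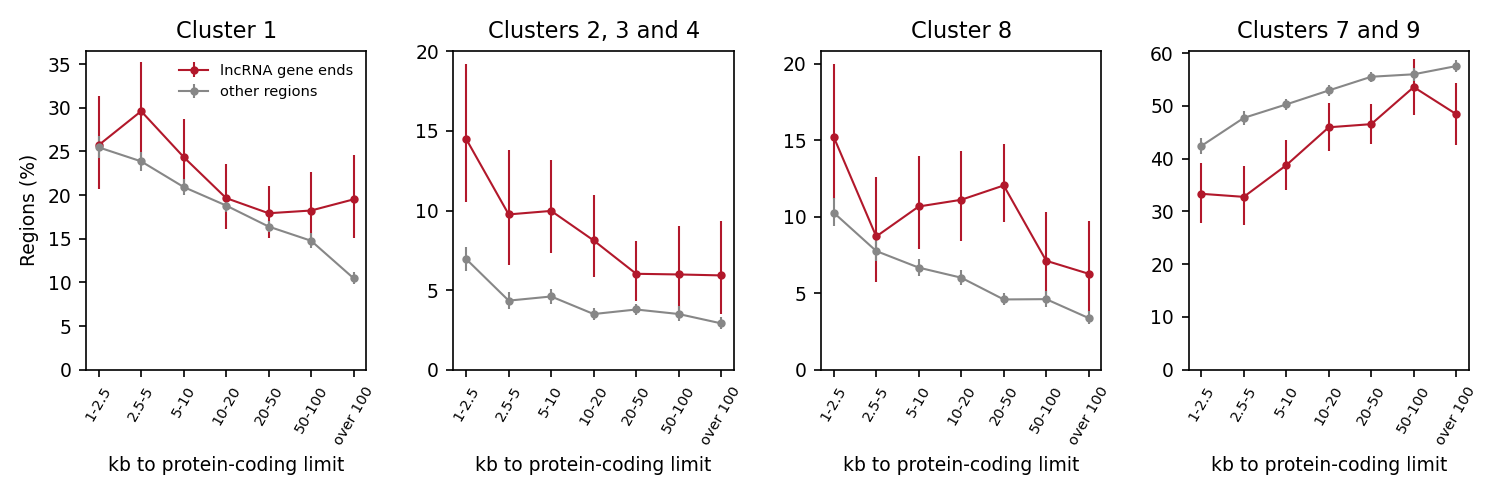
Share of regions (%) in cluster 1, clusters 2, 3 and 4, cluster 8 and clusters 7 and 9, by distance of the midpoint from the nearest protein-coding limit (kb), for regions at lncRNA gene ends and other distal regions, with exact 95% binomial intervals as bars. The share in clusters 2, 3 and 4 at lncRNA gene ends is 14.5% in the nearest bin and 5.92% in the farthest.

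Regions at lncRNA gene ends shared a cluster with their nearest neighbour in a share near that of all regions. Another region lay within 10 kb of 70.6% of them, and the nearest such region had the same cluster in 18.8% of cases, against 20.7% for other distal regions, 13.5% at protein-coding ends and 19.3% over all autosomal regions. The match was 30.9% for cluster 9 and 22.0% for cluster 1, the largest clusters, and 2.94% for cluster 2 (1 of 34). At the genes with more than 1 region, 33 of 215 neighbouring pairs had the same cluster.

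The share of genes with a region was higher for those with a symbol of their own than for provisional models. Of 454 genes whose symbol is not a Gm or LOC number or a Rik clone, 33.7% had a region at an end (interval 29.4 to 38.3%), against 21.0% of 11734 provisional genes. Genes named for the opposite strand of another gene had one in 27.7% of cases (56 of 202), and other named genes in 38.5% (97 of 252). Regions of these other named genes had a median width of 907 bp and were in clusters 2, 3 and 4 in 16.5% of cases (18 of 109). Regions of opposite-strand genes were in clusters 7 and 9 in 55.2% of cases (32 of 58). Over all autosomal regions these shares were 9.48% and 45.2%, and no interval was computed for these small groups. Gm genes, which made up most of the set with 2102 regions, had 6.76% in clusters 2, 3 and 4 and 44.9% in clusters 7 and 9. The following genes were taken from lists of known lncRNAs. The lists are short, and their counts of genes with a region stand beside the 33.7% of genes with a symbol of their own.

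Imprinted lncRNAs had a region at 4 of 8 genes, each in a different cluster. Kcnq1ot1, an antisense RNA expressed from the paternal allele that silences its neighbours, had a cluster 3 region of 1303 bp at its start (chr7:143295889-143297191), inside the limits of Kcnq1 and over the window printed above. Airn, the antisense RNA that silences Igf2r in cis, had a cluster 1 region of 2823 bp at its start (chr17:12740159-12742981), inside Igf2r. Peg13, expressed from the paternal allele, had a cluster 8 region of 1464 bp (chr15:72809135-72810598). Mirg, a carrier of microRNAs in the Dlk1-Dio3 domain, had a cluster 9 region of 312 bp at its end (chr12:109749830-109750141). No midpoint lay within 1 kb of a limit of H19, Meg3, Rian or Snhg14.

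Genes linked to pluripotency had a region in 14 of 20 cases, 17 regions in all. They were spread over all 9 clusters, with 3 each in clusters 4 and 5, small numbers. These clusters held 3.51% and 4.93% of all autosomal regions. Lncenc1, an RNA of naive embryonic stem cells, had a cluster 7 region of 4148 bp at its start (chr13:97432414-97436561), while the median of cluster 7 was 368 bp. Tunar, a conserved RNA linked to pluripotency and neural differentiation, had a cluster 6 region of 601 bp at its start (chr12:105336401-105337001). Oip5os1, also called Cyrano, which promotes decay of miR-7, had a cluster 4 region of 903 bp at its start (chr2:119594001-119594903). Among the Platr genes, named as pluripotency-associated transcripts, Platr22 had a cluster 2 region of 2077 bp at its start, chr1:136694812-136696888, and Platr9 a cluster 5 region of 2660 bp, chr4:34909905-34912564. Platr8 and Platr26 also had cluster 5 regions at their starts, of 1645 and 1796 bp. Platr26 had a second region of 268 bp at its end, in cluster 1, and Platr3 had 541 bp in cluster 6 at its start and 224 bp in cluster 7 at its end. Platr10 went the other way, with 1829 bp in cluster 3 at its end (chr3:75647181-75649009) and 764 bp in cluster 8 at its start. Platr6 had a cluster 1 region of 302 bp at its start, and 4 others of unknown strand here also had a region each. Platr4 (877 bp) and Platr29 (2525 bp) were in cluster 4, Platr27 (909 bp) in cluster 8 and Platr11 (200 bp) in cluster 9. Sox2ot, Platr5, Platr7, Platr14 and Platr30 had no region at a limit, and that of Platr20 lay at a protein-coding end.

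Developmental lncRNAs had a region at 12 of 28 genes, and 7 of their 13 regions were in cluster 1, a small number. The cluster 1 share was 21.4% of the set, 18.7% of all autosomal regions and 14.4% at genes whose symbols are not provisional. The listed genes lie mostly beside genes of developmental transcription factors, many of which are silent in embryonic stem cells. Whether the cluster goes with this was not tested. Hotair, in the Hoxc cluster, had a cluster 1 region of 1038 bp (chr15:102942605-102943642), and Six3os1 one of 1861 bp at its start (chr17:85616602-85618462). Nkx2-2os had one of 2124 bp at its start (chr2:147182717-147184840) and Sox1ot one of 1870 bp (chr8:12384446-12386315). Gata6os, beside the primitive endoderm factor gene Gata6, had one of 4194 bp that covered a limit of Gata6. Its midpoint was 1.02 kb from that limit, just past the distance that would have left the region out. Dnm3os, which hosts miR-199a and miR-214, had a cluster 1 region of 200 bp. Bvht, an RNA needed for the cardiac lineage, had 2408 bp of cluster 1 at one limit, and 4663 bp of cluster 8 at the opposite one. Outside cluster 1, Hoxd3os1 had a cluster 6 region of 726 bp at its start (chr2:74715697-74716422). Evx1os had a cluster 9 region of 3785 bp at its start (chr6:52313336-52317120), the widest of cluster 9 at a gene with a symbol of its own. The median of that cluster was 310 bp. The midpoint of the Evx1os region was 1.73 kb from a limit of the protein-coding gene Evx1, and the region itself covered that limit. Pantr2 had 234 bp in cluster 7 and Otx2os1 200 bp in cluster 9. The regions of Hoxaas2, Hoxb3os, Fendrr, Foxl2os and Lhx1os lay at protein-coding ends and were not taken, and 11 genes, Hottip and Halr1 among them, had none at a limit.

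Hosts of small RNAs had a region at 19 of 34 genes, 24 regions in all. The Snhg genes carry small nucleolar RNAs in their introns. Dancr had the cluster 2 region over its start, chr5:74092535-74093660, that holds the printed window. Snhg7 and Snhg17 had cluster 8 regions of 2356 and 1465 bp at their starts, and Snhg4 had one of 1384 bp. Snhg9 had a cluster 4 region of 1700 bp and Epb41l4aos one of 1115 bp. Snhg3 had 2474 bp and Snhg11 838 bp in cluster 1 at their starts, and Snhg11 also had 422 bp in cluster 7 at its end. Snhg16 had 1957 bp in cluster 6 and Snhg20 2379 bp in cluster 9, both at the start. The regions of Snhg12 (chr4:132308329-132312836, 4508 bp, cluster 1) and Snhg15 (chr11:6523383-6529199, 5817 bp, cluster 6) covered the whole gene, and their place at the end follows from where the midpoint fell.

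MicroRNA hosts showed wide regions at some genes and narrow ones at others. Dleu2, host of miR-15a and miR-16-1, had a cluster 8 region of 3570 bp at its start (chr14:61680780-61684349) and a cluster 5 region of 584 bp at its end. Mir22hg had a cluster 4 region of 3312 bp at its start (chr11:75460151-75463462). Mir9-3hg, a host of the neural miR-9, had 715 bp in cluster 1, and Mir205hg, host of an epithelial microRNA, 377 bp in cluster 7. Mir1a-1hg, host of a muscle microRNA, had 236 bp in cluster 9, and Mir124a-1hg, host of a neural microRNA, had regions of 672 and 200 bp, both in cluster 9. The hosts Mir17hg, Mir155hg, Mir99ahg, Mir100hg, Mir217hg, Mir670hg, Mir124-2hg and Mir133a-1hg had none at a limit.

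Genes of growth control and the DNA damage response had a region at 6 of 9. Trp53cor1, the p53 target known as lincRNA-p21, lies beside Cdkn1a and had cluster 8 regions at both limits, of 1987 bp (chr17:29056251-29058237) and 1332 bp (chr17:29078120-29079451). Chaserr, which represses the adjacent Chd2, had a cluster 3 region of 1369 bp at its start (chr7:73557666-73559034) over the CpG-rich window above. Pvt1, next to Myc, had a cluster 6 region of 1701 bp (chr15:62037761-62039461), and Morrbid, which restrains Bcl2l11 in short-lived myeloid cells, one of 1552 bp at its start (chr2:128428054-128429605). Norad, a decoy of Pumilio proteins, had 318 bp in cluster 1, and Carmn, a cardiac RNA, 443 bp in cluster 7. That of Tug1 lay at a protein-coding end, and Lncpint and Lockd had none at a limit.

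Of the 2 widest regions per cluster at genes with symbols of their own, several have been given. The others were Zbtb11os1 (cluster 2, 2559 bp, over both limits), Thap8 (cluster 3, 1713 bp, annotated as lncRNA despite its symbol), Eprn or Ephemeron (cluster 4, 3360 bp), AI463170 (cluster 5, 3557 bp), Tincr (cluster 6, 2175 bp) and BC039771 (cluster 7, 1917 bp). Eprn has been linked to the exit of embryonic stem cells from the naive state, and Tincr to the differentiation of keratinocytes. The midpoint lay within 1 kb of the start of the gene in each of these 6.

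The regions nearest to the distances that define the set were counted on both sides, in small numbers with wide intervals. Of 180 regions 900 to 1000 bp from a lncRNA limit, just inside, 5.00% were in clusters 2, 3 and 4 and 51.1% in clusters 7 and 9. Of 184 regions 1000 to 1100 bp away, just outside, these shares were 7.61% and 42.9%. At this edge the order was the reverse of that between the whole set and other distal regions. At a lncRNA end and 1000 to 1100 bp from a protein-coding limit, just inside, 4 of 25 were in clusters 2, 3 and 4. At 900 to 1000 bp, just outside, it was 2 of 34.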

How the data were processed

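ACC-seq libraries of R1 cells were made in 2 replicates each of Fix_1,6-Hex, Fix and Fresh cells. Per the submitters' processing notes, SAMtools 1.6, Picard, Bowtie2 2.3.3.1 and cutadapt 1.18 were applied to the reads, with mm10 as the build. The authors deposited a table of regions with a cluster name each. The sources used here do not say how regions were called, pooled or clustered. The table has no value per library, so depth and precision per library are unknown and the groups could not be contrasted.

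Positions, 0-based in the table, were counted from 1. Gene limits and biotypes came from RefSeq on GRCm38.p6, and strand and start windows from its promoter table, kept where the window's start matched the gene limit (7789 lncRNA and 9841 protein-coding starts). Shares carry exact Clopper-Pearson 95% intervals. The SD is over autosomes. Placement was tested on 2000 simulated regions, with 0 errors. Members and gene lists were chosen with earlier results of these data known. Genes named were every listed lncRNA with a region (a result at a listed gene is not reported here), the 2 widest regions per cluster at a gene whose symbol is not provisional, and the genes with most regions, where 213 tied at 2. Listed genes without one, and examples given with another result, were named after their values were seen. Windows printed were the first listed gene of each list whose window lay in a region. Alternatives are in the closing section. Python 3.11.15 was used with pandas 2.3.3, numpy 2.4.6, SciPy 1.17.1 and matplotlib 3.10.9.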

Additional observations from a re-analysis of the deposited data

How the results depend on the processing

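No paired analysis was possible because the table holds no value per library, and for the same reason no replicate could be left out in turn. The start-minus-end differences in clusters 1, 8, 2 to 4, and 7 and 9 kept their sign under the 9 alternatives. Those that moved were clusters 2, 3 and 4, 5.65 percentage points, against 1.30 among regions of middle width, and clusters 7 and 9, -15.4, against -0.53 at genes whose symbols are not provisional. With a lncRNA window of 500 bp there were 1717 regions, at 13.9% of lncRNA genes, with 75.6% at a start, 9.38% in clusters 2, 3 and 4 and 40.2% in clusters 7 and 9. With 2.5 kb there were 5056 regions, at 34.4% of genes, with 64.8% at a start, 6.17% in clusters 2, 3 and 4 and 45.8% in clusters 7 and 9. These stand beside 2764 regions, 21.5% of genes, 69.8% at a start among those with strand (regions at both limits counted as starts, here and in the alternatives), 8.21% and 43.6%. With 500 bp from protein-coding limits, 23.2% of genes had a region, and 9.63% and 40.9% were in the 2 cluster groups. With 2.5 kb, 20.3% of genes had one. With 5 kb it was 19.5% of genes, with 19.8% in cluster 1 and 46.3% in clusters 7 and 9. Counting any overlap gave 25.4% of genes, 41.2% in clusters 7 and 9 and a median width of 580 bp. Symbols that are not provisional left 167 regions, at 33.7% of those genes, with 78.7% at a start, 14.4% in cluster 1, 14.4% in clusters 2, 3 and 4, 38.3% in clusters 7 and 9 and a median width of 764 bp. With 1 region per 50 kb, 18.9% of genes had one. Regions of middle width were 1401, at 11.4% of genes, with 66.9% at a start, 27.5% in cluster 1, 3.43% in clusters 2, 3 and 4 and 39.5% in clusters 7 and 9. Other distal regions of middle width, an alternative chosen after seeing the data, had 1.58% in clusters 2, 3 and 4, against 4.04% at any width. In cluster 5, symbols that are not provisional gave 8.38%, against 4.27%. The middle-width setting removes the wide regions that clusters 2, 3 and 4 mostly hold. The causes of the changes in this section were not tested.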

Other observations

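Regions at limits of both a lncRNA gene and a protein-coding gene were left out above. Of 4148 regions with a midpoint within 1 kb of a lncRNA limit, 1384 (33.4%) were also within 1 kb of a protein-coding limit. Of these, 37.1% were in clusters 2, 3 and 4 (exact 95% binomial interval 34.5 to 39.7%), 21.2% in cluster 8 and 9.83% in clusters 7 and 9. The regions at lncRNA limits alone had 8.21%, 10.4% and 43.6%. Cluster 1 held 21.8% of the shared regions and 21.4% of the others. The regions of Gas5, Snhg1, Snhg6, Snhg8, Snhg10 and Snhg18, all hosts of small nucleolar RNAs, were among those at a protein-coding end.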
